A study of Danio rerio with 2 samples.

Results

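Nuclear receptors were followed in 2 RNA sequencing libraries of zebrafish, 1 made from whole embryos and 1 from livers dissected out of adult fish. The receptors were chosen by name, from the prefixes of the nuclear receptor gene families, and the only feature dropped was ppargc1b, a coactivator that shares a prefix with pparg. This left 65 of 27098 gene features, which carry 62 gene names because nr1h3, nr5a1a and pparg each stand in the files as separate features at different positions. The names were the only criterion, but the receptors were chosen with earlier results of these data known. Receptors whose names lie outside these prefixes, such as the hnf4 and thyroid hormone receptor genes, were not counted.

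Both groups of fish had spent 48 h in contact with 9 human hepatotoxicants, namely 17a-ethynylestradiol, valproic acid, tetracycline, amiodarone, paraquat, cyclosporine A, acetaminophen, chlorpromazine and thioacetamide. Embryos were collected as samples of 15 whole animals, and the RNA of all samples of a source was mixed in equal amounts into 1 pool before sequencing. Embryo age, adult sex, strain and the number of samples per pool were not given in the sources used here. Every exposure is mixed in each pool and no library of unexposed fish was analysed here, so the exposures, the age and the tissue cannot be told apart.

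Nuclear receptors are transcription factors, many of which are switched by a small fat-soluble ligand such as a steroid, a bile acid, a retinoid or a fatty acid. Most bind DNA through a zinc finger domain as homodimers or as partners of a retinoid X receptor (RXR), and they exchange corepressors for coactivators when ligand binds. In the liver they govern bile acid, lipid and drug metabolism and, in egg-laying vertebrates, the estrogen-driven synthesis of yolk protein. In the embryo other members pattern the nervous system, the eye and the vessels.

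Gene counts totalled 11408727 for embryos and 13020149 for livers. Counts were scaled to CPM, counts relative to a common library size, by these totals, and each liver to embryo ratio carries an exact 95% interval, given in brackets. A receptor was called higher in a pool where its whole interval reached 4-fold or more and its own count was 10 or more. With 1 library per source there was no replicate check and no p-value, and the intervals cover counting error only. The scale of the libraries matters, since factors from trimmed means (TMM) and size factors from medians of ratios shifted all values to the liver side by 1.35 and 1.38 on the log2 scale. TMM factors therefore multiply each ratio below by the same amount, and receptor calls that this changed are named. In bulk RNA, fewer cells of a type and less RNA per cell cannot be told apart.

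The labelled tissues were checked against marker genes. Of 13 measured hepatocyte markers 11 were called higher in livers and 0 in embryos, with a summed level of 121957 CPM in livers and 8865 CPM in embryos. All 8 skeletal muscle and all 6 neuron markers were called higher in the embryo pool, where they summed to 49225 and 2186 CPM against 6.53 and 4.07 CPM in the liver pool. Summed levels in the embryo and the liver pool were 5104 and 1652 CPM for 8 pancreatic acinar genes, 1458 and 852 CPM for 4 intestinal genes, 530 and 205 CPM for 8 red cell genes, 88.3 and 38.8 CPM for 5 leukocyte genes, and 482 and 835 CPM for 3 bile duct genes. Of the 3 bile duct genes 0 were called toward livers and 1 toward embryos, or 1 and 1 with TMM factors. Their median log2 ratio was -1.36 with library totals, against -1.60 for all measured genes. Adult globins hbaa1, hbba1 and hbba2 were at 0 in the embryo pool and embryonic globins hbae1, hbae3 and hbbe2 at 0 in the liver pool. The 10 oocyte markers matched summed to 5.43 CPM in embryos and 24.7 CPM in livers. Calls toward livers numbered 3 among the 7 measured and calls toward embryos 0, or 4 and 0 with TMM factors. Those 3 were zp2.2, zp3 and zp3a.2, with 2, 0 and 0 embryo counts and 135, 41 and 32 liver counts. Only 8.15% of the liver reads of zp2.2 were unique. The oocyte genes gdf9 and bmp15 were not measured, with gdf9 at 0 in both pools and bmp15 at 0 and 1 counts.

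A feature named pparg has to be set apart from the others. It is a single exon of 262 bases with 7557 embryo counts and 83964 liver counts, a ratio of 9.74 (9.51 to 9.97). Only 4.12% of its embryo reads and 3.40% of its liver reads had 1 position in the genome, and no read crossed an exon junction. Its region also overlaps another feature, zgc:136531, and where its reads came from was not tested. The other pparg feature, with 5 exons, had 129 embryo counts and 141 liver counts and mostly unique reads. Counts below include the short feature where the name rule does, with the value without it beside them, and summed levels leave it out.

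Most nuclear receptor features were detected in both pools, and every receptor detected in liver was detected in the embryo. At least 10 counts were found for 60 of the 65 features in the embryo pool and for 48 in the liver pool, that is 92.3% and 73.8%. Among all features these shares were 77.9% and 60.9%. All 48 features detected in the liver pool were also detected in the embryo pool, and 12 were detected in the embryo pool alone. Most other genes detected in livers were detected in embryos as well, so this overlap is not particular to the receptors. Of all 27098 features 21101 reached 10 counts in the embryo pool, 16495 in the liver pool and 21750 in at least 1 pool. Without the short pparg feature 47 were detected in the liver pool. The 5 features under 10 counts in both pools were pgr, nr0b2b, rxrba and both nr5a1a features. The progesterone receptor gene pgr had 0 embryo counts and 8 liver counts, and the nr5a1a features, named for a relative of mammalian steroidogenic factor 1, had 4 and 7 embryo counts and 0 and 2 liver counts. A count of 0 allows up to 0.263 CPM in embryos and 0.230 CPM in livers, which is the level of 3 counts.

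Of the 60 measured receptor features 9 were called toward livers, 13 toward embryos and 38 toward neither. Among all 21750 measured genes 3.35% were called toward livers and 30.9% toward embryos, against 15.0% and 21.7% of the receptor features. With TMM factors 12 and 10 receptor features were called, or 20.0% and 16.7%, against 8.06% and 15.8% of all measured genes. Without the short pparg feature 8 were called higher in livers with library totals. As log2 of liver over embryo, the median was -0.74 for the receptor features and -1.60 for all measured genes with library totals, and 0.61 and -0.25 with TMM factors, so the sign of the receptor median follows the scaling. The remaining 64 features summed to 1975 CPM in embryos and 1664 CPM in livers, a ratio of 0.842 (0.827 to 0.858) that became 2.15 with TMM factors. TMM factors moved every ratio to the liver side, so none of the 9 calls toward the liver pool could be lost. Of 13 calls toward the embryo pool 10 were kept with TMM factors, and 3 toward the liver pool were gained. The intervals of 9 features passed from below 1 to above 1.

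**Figure D1:**
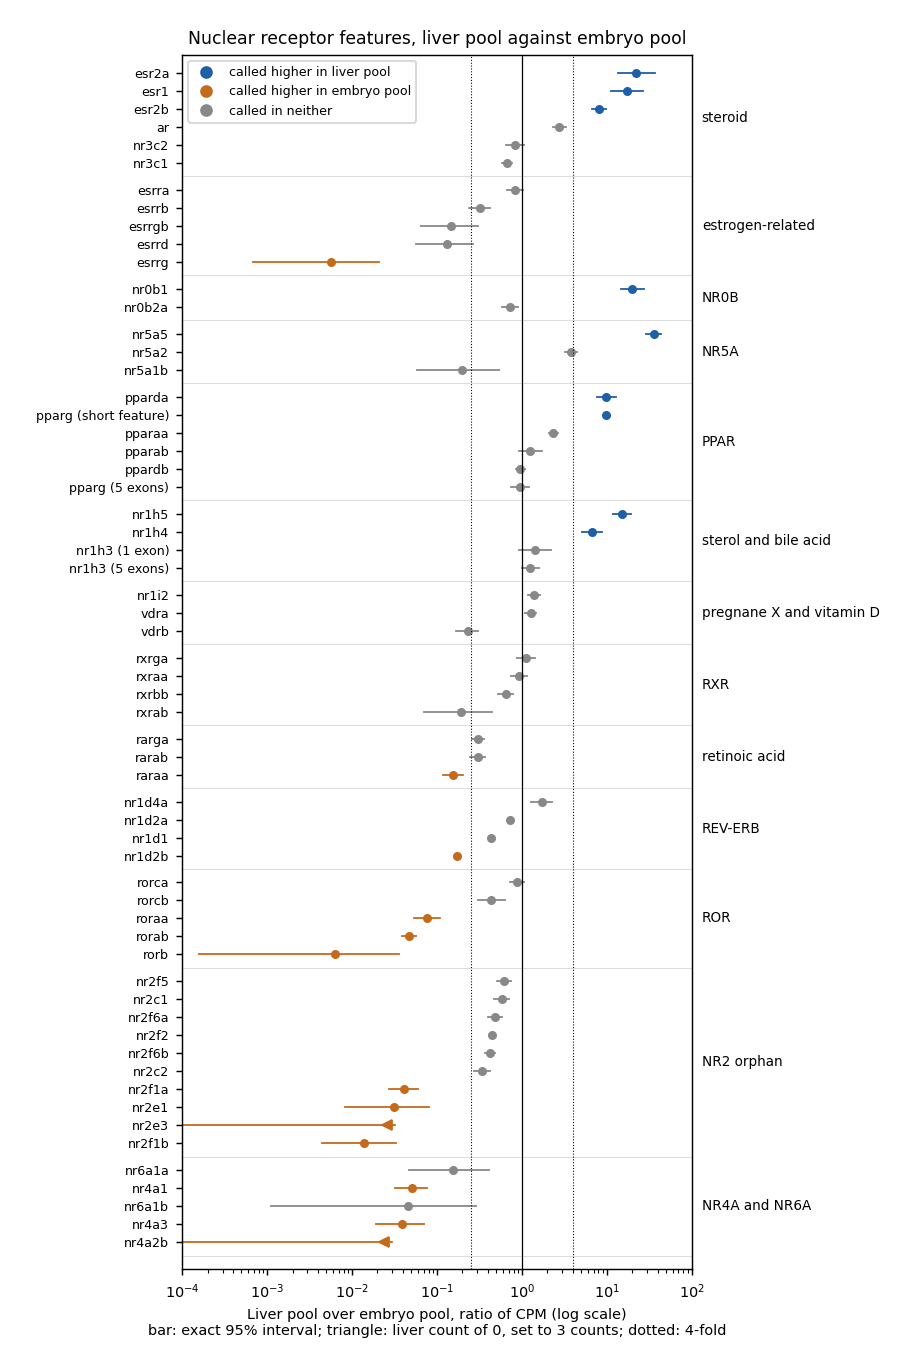
Liver pool over embryo pool ratio of CPM (log axis) for the 60 measured nuclear receptor features, grouped by receptor class, with exact 95% intervals of counting error and 1 library per pool. Estrogen receptors, nr0b1, nr5a5, pparda, nr1h4 and nr1h5 lie right of the 4-fold line, and rorb, roraa, rorab, nr2e, nr2f1 and nr4a genes lie left of it.

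Which receptors led each pool was read from the deposited RPKM, exon reads per exon length and library size, since only such values can be compared between genes. In the embryo pool the order was led by the REV-ERB genes nr1d2b at 74.3 RPKM, nr1d1 at 58.0 RPKM and nr1d2a at 54.3 RPKM, heme-binding repressors of the circadian clock. They were followed by nr2f2, the gene of COUP-TFII, a regulator of vein and lymph vessel identity, at 44.0 RPKM, and rorab at 42.3 RPKM. The liver pool was led by nr5a5, a fish relative of the liver receptor homolog LRH-1, at 150 RPKM, which placed it at percentile 98.4 of all features of that library. After it came nr0b1 at 49.2 RPKM, nr1d2a at 38.0 RPKM, pparda at 36.3 RPKM and nr1h5 at 31.0 RPKM. The 5 leading features took 41.5% of the summed receptor RPKM in embryos and 49.9% in livers. Only nr1d2a stood among the 5 in both pools. The median receptor feature had 6.39 RPKM in the embryo pool and 3.85 RPKM in the liver pool.

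**Figure D2:**
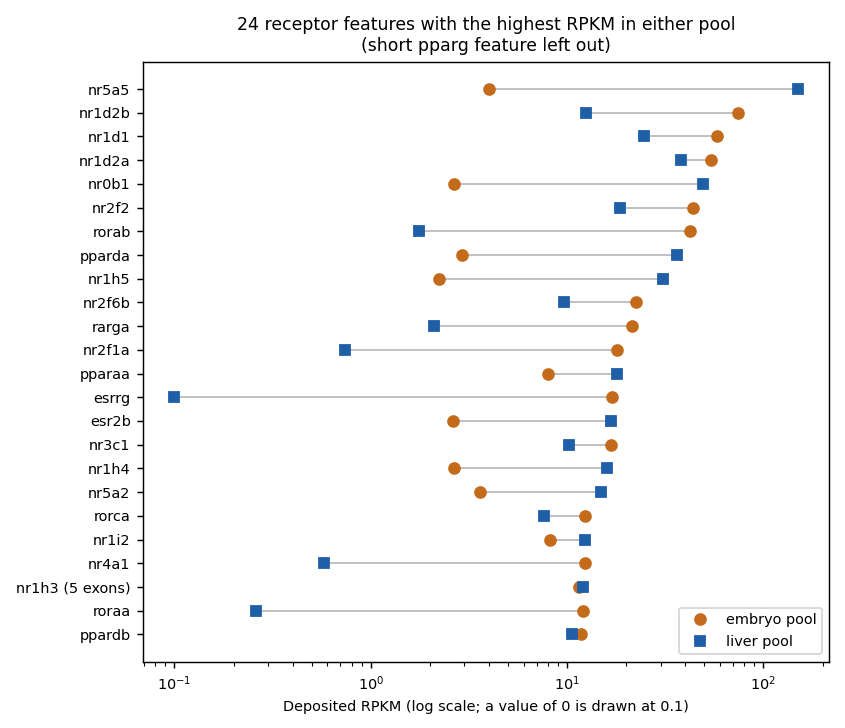
Deposited RPKM (log axis) in the embryo pool (circles) and the liver pool (squares) of the 24 receptor features with the highest RPKM in either pool, the short pparg feature left out. The REV-ERB genes nr1d1, nr1d2a and nr1d2b sit between 54.3 and 74.3 RPKM in the embryo pool, and nr5a5 stands alone at 150 RPKM in the liver pool.

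Steroid receptors differed in their calls. All 3 estrogen receptor genes were called higher in the liver pool, the androgen receptor gene was called with TMM and size factors only, and both corticosteroid receptor genes were called under none of these scalings. The estrogen receptor alpha gene esr1 had 2.1 CPM in embryos and 36.1 CPM in livers, a ratio of 17.2 (11.4 to 27.1). For the beta receptor gene esr2a the levels were 1.58 and 34.7 CPM, a ratio of 22.0 (13.8 to 37.5). The other beta receptor gene, esr2b, had 10.3 and 84.0 CPM, a ratio of 8.12 (6.71 to 9.91). Per exon length esr2b was the highest of them in the liver pool, at 16.8 RPKM, while esr1 and esr2a had 9.50 and 9.89 RPKM. Reads on exon junctions, which come from spliced transcripts, numbered 33 for esr1, 48 for esr2a and 85 for esr2b in livers and 0, 1 and 9 in embryos.

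The androgen receptor gene ar had 175 embryo counts and 550 liver counts, a ratio of 2.75 (2.32 to 3.28) that was called higher in the liver pool only with TMM and size factors. The glucocorticoid receptor gene nr3c1, which mediates the cortisol response, had 460 embryo counts and 351 liver counts, a ratio of 0.669 (0.580 to 0.770) that turned to 1.71 with TMM factors. The mineralocorticoid receptor gene nr3c2 had 135 and 128 counts, a ratio of 0.831 (0.647 to 1.07) whose interval included 1 with library totals and that turned to 2.12 (1.65 to 2.72) with TMM factors.

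Genes around these receptors were counted from lists, which were chosen with earlier results of these data known. Of 9 measured genes on the list of estrogen receptor targets, which holds the yolk protein genes and esr1 itself, 8 were called higher in the liver pool, and the brain aromatase gene cyp19a1b, with 181 embryo counts and 11 liver counts, was called higher in the embryo pool. 17a-ethynylestradiol, a synthetic estrogen, was among the pooled exposures, and its part in these values was not tested. Of 15 measured glucocorticoid receptor targets 3 were called higher in livers and 3 in embryos, or 6 and 1 with TMM factors. Among all measured genes the shares called toward livers and embryos were 3.35% and 30.9%, or 8.06% and 15.8% with TMM factors, and the median log2 ratio of the list was -0.05 against -1.60. The tyrosine aminotransferase gene tat was 10.3-fold higher (9.61 to 11.2) and the glucose-6-phosphatase gene g6pc1a.1 (g6pca in the files) 9.11-fold higher (7.62 to 11.0) in livers. On the same list the clock gene per1b was 14.3-fold higher (12.5 to 16.6) in embryos.

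Enzymes that make or inactivate steroid and vitamin D ligands had 5 of 14 measured genes called higher in each pool, and 6 in livers and 3 in embryos with TMM factors, beside the same all-gene shares of 3.35% and 30.9%, or 8.06% and 15.8%. In the liver pool the 17-beta-hydroxysteroid dehydrogenase gene hsd17b3 was highest by ratio, at 10 embryo counts and 1664 liver counts, 146-fold (79.1 to 305). The vitamin D 1-alpha-hydroxylase gene cyp27b1 (LOC793309 in the files) was 13.8-fold higher (10.8 to 17.9) there. Those with a bound farthest from 1 toward embryos were star and cyp11c1, with 66 embryo counts and 0 liver counts for star, which moves cholesterol into mitochondria, and 59 and 0 for the steroid hydroxylase gene cyp11c1 (cyp11b2 in the files).

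Of the NR0B and NR5A receptors nr5a5 and nr0b1 were called higher in the liver pool, nr5a5 with the highest ratio of all receptor features. NR5A proteins bind DNA as monomers and in mammals drive bile acid and steroid synthesis genes, while NR0B1 (DAX1) and NR0B2 (SHP) lack the zinc finger domain and in mammals repress other receptors, NR5A proteins among them. The nr5a5 gene had 100 embryo counts (8.77 CPM) and 4081 liver counts (313 CPM), a ratio of 35.8 (29.3 to 44.1). Of its liver reads 99.9% were unique and 543 crossed exon junctions. The LRH-1 gene nr5a2 had 172 embryo counts and 748 liver counts, a ratio of 3.81 (3.22 to 4.52), called only with TMM and size factors, while nr5a1b had 22 and 5 counts.

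Of the NR0B genes nr0b1 stood on the liver side, with 43 embryo counts (3.77 CPM) and 974 liver counts (74.8 CPM), a ratio of 19.8 (14.6 to 27.6). All of its reads in both pools were unique. The SHP gene nr0b2a, a bile acid-induced repressor in mammals, had 205 and 170 counts, a ratio of 0.727 (0.589 to 0.895) that turned to 1.85 with TMM factors. Its copy nr0b2b had 2 and 0 counts. In mammals nr0b1 is best known from the adrenal gland and the gonads together with steroidogenic factor 1, and both nr5a1a features had at most 2 liver counts here.

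Both farnesoid X receptor genes were called higher in the liver pool, whereas oxysterol, pregnane X and fat-sensing receptors were mostly within 4-fold. The bile acid receptor gene nr1h4 had 63 embryo counts and 485 liver counts, a ratio of 6.75 (5.18 to 8.92). Its relative nr1h5, the FXR-beta gene, had 69 and 1182 counts, a ratio of 15.0 (11.8 to 19.4), and reached 31.0 RPKM against 16 RPKM for nr1h4 in the liver pool. The liver X receptor gene nr1h3, an oxysterol sensor, stands in the files as a feature of 5 exons, with 121 and 175 counts and a ratio of 1.27 (0.999 to 1.61), and a feature of 1 exon, with 38 and 62 counts and a ratio of 1.43 (0.940 to 2.2). Neither interval excluded 1 with library totals. On the list of bile acid and oxysterol receptor targets 2 of 18 measured genes were called higher in livers and 8 in embryos, or 3 and 4 with TMM factors, with a median log2 ratio of -0.99 against -1.60 for all measured genes, of which 3.35% and 30.9% were called. The 2 were slc51a (zgc:92111 in the files), which exports bile acids, 11.1-fold higher (10.04 to 12.4), and the sterol transporter gene abcg8, 5.46-fold higher (4.11 to 7.38). On the embryo side the desaturase gene scdb had 666 embryo counts and 5 liver counts, and mylipb, a gene of an E3 ubiquitin ligase, had 545 and 15.

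Peroxisome proliferator-activated receptors (PPARs), sensors of fatty acids, differed most, beside the short pparg feature, in 1 gene. The pparda gene had 72 embryo counts (6.31 CPM) and 810 liver counts (62.2 CPM), a ratio of 9.86 (7.74 to 12.7). The PPAR alpha gene pparaa, whose mammalian counterpart drives fatty acid oxidation in the liver, had 368 and 991 counts, a ratio of 2.36 (2.09 to 2.67), called with TMM and size factors only. For pparab the counts were 73 and 105, a ratio of 1.26 (0.926 to 1.72). The ppardb gene had 454 and 501 counts, a ratio of 0.967 (0.850 to 1.1), and the 5-exon feature of pparg, a regulator of fat cells, had a ratio of 0.958 (0.749 to 1.23). Among 23 measured PPAR targets 5 were called higher in livers and 2 in embryos, or 12 and 1 with TMM factors. The median log2 ratio of this list was 0.79 against -1.60 for all measured genes. The all-gene shares called toward livers and embryos were 3.35% and 30.9%, or 8.06% and 15.8% with TMM factors. The fatty acid-binding protein gene fabp10a (fabp10 in the files) and ucp1, a gene of the mitochondrial carriers, named ucp4 in the files, led on the liver side, and fabp1b.1 (fabp1b in the files) and the fatty acid translocase gene cd36 were the 2 on the embryo side. Of these, fabp10a is also on the list of hepatocyte markers. The call of cd36 toward embryos was lost with TMM factors.

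The pregnane X receptor gene nr1i2, which senses drugs and bile acids, had 282 embryo counts and 449 liver counts, a ratio of 1.40 (1.2 to 1.62). The vitamin D receptor genes went apart, with 298 and 436 counts for vdra, a ratio of 1.28 (1.1 to 1.49), and 217 and 57 counts for vdrb, a ratio of 0.230 (0.169 to 0.309). On the list of pregnane X receptor targets 10 of 12 measured genes had no call with library totals. The exceptions were cyp2p6 (cyp2j25 in the files), a cytochrome P450 gene 6.19-fold higher (5.49 to 7.01) in livers, and gsta.1 (gstal in the files), a glutathione transferase gene 4.91-fold higher (4.59 to 5.25) in embryos. With TMM factors 5 were called higher in livers and 0 in embryos. The all-gene shares called toward livers and embryos were 3.35% and 30.9% with library totals, and 8.06% and 15.8% with TMM factors.

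The RXR genes, common partners of the receptors above, were not called in either pool under library totals, TMM or size factors. Counts in the embryo and the liver pool were 179 and 190 for rxraa, 129 and 166 for rxrga and 239 and 176 for rxrbb, with ratios from 0.645 to 1.13. The exception in size was rxrab, with 32 and 7 counts and a ratio of 0.192 (0.0714 to 0.442). With exon reads rxraa had a ratio of 0.481 (0.359 to 0.640), against 0.930 (0.754 to 1.15) with total gene reads. Exon ratios of rxrga, rxrbb and rxrab were 1.18, 0.677 and 0.0876. Summed over the 5 RXR features the ratio was 0.815 (0.723 to 0.917), which turned to 2.08 with TMM factors.

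Retinoic acid receptor genes were on the embryo side, as was the median of all measured genes. With library totals the median log2 ratio was -1.72 for the retinoic acid receptor genes and -1.60 for all measured genes. These receptors turn the retinoic acid gradient of the embryo into hindbrain, limb and heart patterning. The raraa gene had 31.3 CPM in embryos and 4.92 CPM in livers, 6.37-fold higher (4.87 to 8.44) in embryos, a call lost with TMM and size factors. The rarab gene was 3.29-fold higher (2.69 to 4.03) and rarga 3.27-fold higher (2.78 to 3.85) in embryos, and neither was called. Summed, these genes were 3.77-fold higher (3.37 to 4.22) in embryos, and the summed ratio of liver over embryo was 0.265 with library totals and 0.678 with TMM factors.

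Genes of retinoid handling were counted next. Of 16 measured, 8 were called higher in embryos and 1 in livers, or 6 and 5 with TMM factors, with a median log2 ratio of -2.96. The shares of all measured genes were 30.9% toward embryos and 3.35% toward livers, or 15.8% and 8.06% with TMM factors, and their median was -1.60. The enzymes that break down retinoic acid had 93 embryo counts for cyp26a1, 563 for cyp26b1 and 181 for cyp26c1, against 0, 18 and 0 liver counts. Cellular retinoic acid-binding protein crabp2a had 316 and 4 counts, and the retinoic acid-producing enzyme gene aldh1a2 had 740 and 69 counts. The call of aldh1a2 toward embryos was lost with TMM factors. The gene on the liver side was dhrs9 (rdh1l in the files), a retinol dehydrogenase gene 9.01-fold higher (8.21 to 9.91).

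REV-ERBs repress and RORs activate clock genes through the same DNA elements, and 4 of the 9 genes, nr1d2b, rorab, roraa and rorb, were called higher in embryos with library totals. Only rorab and rorb kept the call with TMM factors. The all-gene share called toward embryos was 30.9% with library totals and 15.8% with TMM factors. The REV-ERB gene nr1d2b had 285 CPM in embryos and 49.3 CPM in livers, 5.78-fold higher (5.31 to 6.31) in embryos, a call lost with TMM and size factors. Ratios of liver over embryo were 0.437 (0.403 to 0.473) for nr1d1 and 0.726 (0.681 to 0.774) for nr1d2a, and both passed above 1 with TMM factors, to 1.11 and 1.85. The least abundant REV-ERB gene, nr1d4a, had 76 embryo counts and 149 liver counts, a ratio of 1.72 (1.29 to 2.3).

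The ROR genes were further apart. The rorab gene had 2045 embryo counts (179 CPM) and 110 liver counts (8.45 CPM), 21.2-fold higher (17.5 to 25.9) in embryos, and roraa had 441 and 39 counts, 12.9-fold higher (9.29 to 18.4), a call lost with TMM and size factors. The rorb gene, known in mammals from retina and brain, had 138 embryo counts and 1 liver count, a ratio of embryo over liver of 157 (27.8 to 6265). The rorca gene, whose mammalian counterpart acts in lymphocytes and liver, had 229 and 230 counts, a ratio of 0.880 (0.730 to 1.06), and rorcb had 94 and 47. Of 12 measured genes on the list of clock targets 6 were called higher in embryos and 0 in livers, and with TMM factors none was called in either direction. Among all measured genes 30.9% were called toward embryos and 3.35% toward livers with library totals. Collection times of day were not given in the sources used here.

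Among the estrogen-related and NR2 orphan receptors, 5 of 15 measured features were called higher in the embryo pool and kept the call with TMM factors. With library totals this was near the 30.9% of all measured genes called toward embryos, a share that was 15.8% with TMM factors. The estrogen-related receptor gene esrrg, a regulator of mitochondrial genes in muscle and brain, had 305 embryo counts (26.7 CPM) and 2 liver counts (0.154 CPM), a ratio of embryo over liver of 174 (47.8 to 1444). The photoreceptor gene nr2e3 had 102 and 0 counts. Its level was 38.8-fold that of livers with the liver count set to the floor of 3, and the lower limit of its interval was 31.0. The neural stem cell gene nr2e1 had 113 and 4 counts, 32.2-fold higher (12.2 to 120).

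COUP transcription factor genes showed both patterns. The COUP-TFI genes nr2f1a, with 616 embryo counts and 29 liver counts, and nr2f1b, with 315 and 5 counts, were 24.2-fold (16.7 to 36.5) and 71.9-fold higher (30.5 to 223) in embryos. Only 66 of the 616 embryo reads of nr2f1a were unique, and its region overlaps the feature LOC100331740. With unique reads nr2f1a was 11.8-fold higher in the embryo pool with a lower limit of 5.15. By contrast, nr2f2 had 2128 embryo counts (187 CPM) and 1087 liver counts (83.5 CPM), a ratio of 0.448 (0.416 to 0.482) that became 1.14 with TMM factors, and nr2f5, nr2f6a and nr2f6b had ratios from 0.420 to 0.617. The testicular receptor genes nr2c1 and nr2c2 had ratios of 0.580 (0.469 to 0.716) and 0.342 (0.274 to 0.424).

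NR4A genes respond within minutes to growth and stress signals and in their mammalian forms need no ligand. The 3 NR4A features found were all called higher in the embryo pool. The all-gene share called toward embryos was 30.9% with library totals and 15.8% with TMM factors. Counts in the embryo and the liver pool were 414 and 24 for nr4a1, 110 and 0 for nr4a2b and 249 and 11 for nr4a3. Levels were 19.7-fold (13 to 31.1) higher in the embryo pool for nr4a1 and 25.8-fold (14.2 to 52.4) higher for nr4a3. For nr4a2b, with the liver count set to 3, the value was 41.8-fold, and the lower limit of its interval was 33.5. All reads of the 3 genes were unique, and the calls were kept with TMM and size factors. The germ cell nuclear factor genes nr6a1a and nr6a1b had 28 and 19 embryo counts and 5 and 1 liver counts. Of the other estrogen-related receptor genes, esrra had 171 embryo counts and 163 liver counts, a ratio of 0.835 (0.670 to 1.04), while esrrd and esrrgb had 60 and 53 embryo counts and 9 liver counts each. Markers of neurons and skeletal muscle stood on the same side as this group, with 6 of 6 and 8 of 8 called higher in the embryo pool and the neuron gene elavl3 at 0 in the liver pool, and their part in the values was not tested.

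Many zebrafish receptors exist as a and b copies, left from a genome duplication in the ancestor of teleost fishes, and the split between copies can be compared between the pools without any scaling. Of 14 such pairs 12 had both copies measured. The ratio of the copies differed between the pools, with an exact 95% interval of the ratio of ratios that excluded 1, in 10 of them (8 of the 11 with a value from exon reads), and the liver to embryo ratios of the copies had intervals that did not overlap in 8. The largest shift was that of PPAR delta, where pparda took 13.7% (10.9 to 16.9) of the reads of both copies in embryos and 61.8% (59.09 to 64.4) in livers. The lead thus passed from ppardb to pparda, and the ratio of ratios was 10.2 (7.72 to 13.6).

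REV-ERB beta also changed its leading copy. The nr1d2a gene took 39.3% (38.0 to 40.6) of the reads in embryos and 73.1% (71.3 to 74.9) in livers, a ratio of ratios of 4.20 (3.77 to 4.68). For the vitamin D receptor the share of vdra was 57.9% (53.5 to 62.2) and 88.4% (85.3 to 91.1), a ratio of ratios of 5.56 (3.98 to 7.86). Most vdra reads lay outside exons, and with exon reads vdrb led in embryos, at 158 reads against 71 for vdra. In livers vdra led with exon reads too, at 111 against 26. Deposited RPKM in embryos was 6.38 for vdra and 10.2 for vdrb. The b copy led in both pools for the beta estrogen receptor, with esr2a at 13.2% (8.04 to 20.1) in embryos and 29.2% (27.0 to 31.6) in livers.

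Shifts toward the a copy in the liver pool were also seen for rxraa over rxrab, at 4.84 (2.03 to 13.3), and for rorca over rorcb, at 2.01 (1.33 to 3.05), an interval that included 1 with exon reads, 2.11 (0.834 to 6.02). The corresponding value for pparaa over pparab was 1.87 (1.34 to 2.61), and that for nr2f1a over nr2f1b was 2.96 (1.12 to 9.90), with the few unique reads of nr2f1a given above. Retinoic acid receptor alpha went the other way, with raraa at 48.2% (44.6 to 51.9) of the reads in embryos and 32.5% (26.0 to 39.5) in livers. For nr2f6a and nr2f6b the ratio of ratios was 1.14 (0.907 to 1.44), an interval that included 1. The value for roraa over rorab, 1.64 (1.09 to 2.43), became 0.520 (0.184 to 1.19) with exon reads.

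**Figure D3:**
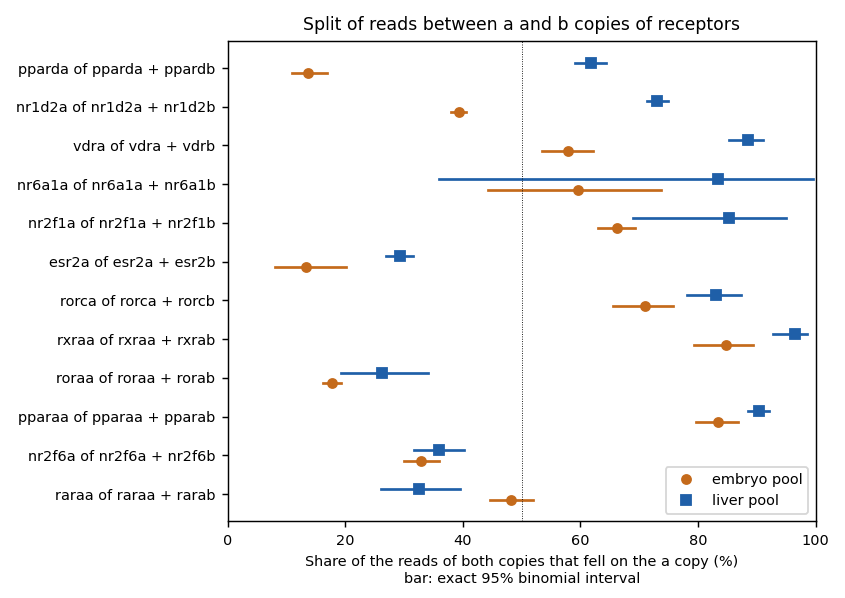
Share of the reads of both copies that fell on the a copy (%), for 12 receptors with measured a and b copies, in the embryo pool (circles) and the liver pool (squares) with exact 95% binomial intervals of counting error. The share of pparda goes from 13.7% to 61.8% and that of nr1d2a from 39.3% to 73.1% between the embryo and the liver pool.

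Some receptors had most of their reads outside annotated exons, as did many genes of each library. The median share of reads in exons was 85.7% over 59 receptor features detected in the embryo pool, the short pparg feature left out, and 85.5% over 47 in the liver pool, against 88.2% and 83.2% over all detected genes with an exon length. In the liver pool 9 receptor features had under 50% of their reads in exons, which is 19.1% of them against 22.3% of all such genes. In the embryo pool there were 5, or 8.47% against 13.1%. The 9 were esrrb, rorcb, roraa, vdra, rarga, raraa, rxraa, vdrb and nr3c2. All 73 liver reads of esrrb lay outside its exons, and 24 of them were unique.

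The gap between the pools was wider in exons for several receptors. With exon reads rarga had 503 embryo reads and 56 liver reads, 10.8-fold higher (8.17 to 14.5) in embryos, and was called. For raraa the exon reads were 266 and 19, 16.8-fold (10.6 to 28.4), and for roraa they were 244 and 6, 48.8-fold (22.1 to 134). The esrrb gene had 84 exon reads in embryos and 0 in livers, 33.6-fold with the liver count set to 3, and the lower limit was 26.8. The vdra gene was low in exons in both pools, at 23.8% and 25.5%. With exon reads 18 receptor features were called higher in the embryo pool in place of 13, the additions being esrrb, esrrgb, nr6a1b, vdrb and rarga, and the 9 calls toward the liver pool were kept. No other feature of the same files overlapped the region of any receptor except nr2f1a and the short pparg feature, and the source of the reads outside exons was not tested.

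**Figure D4:**
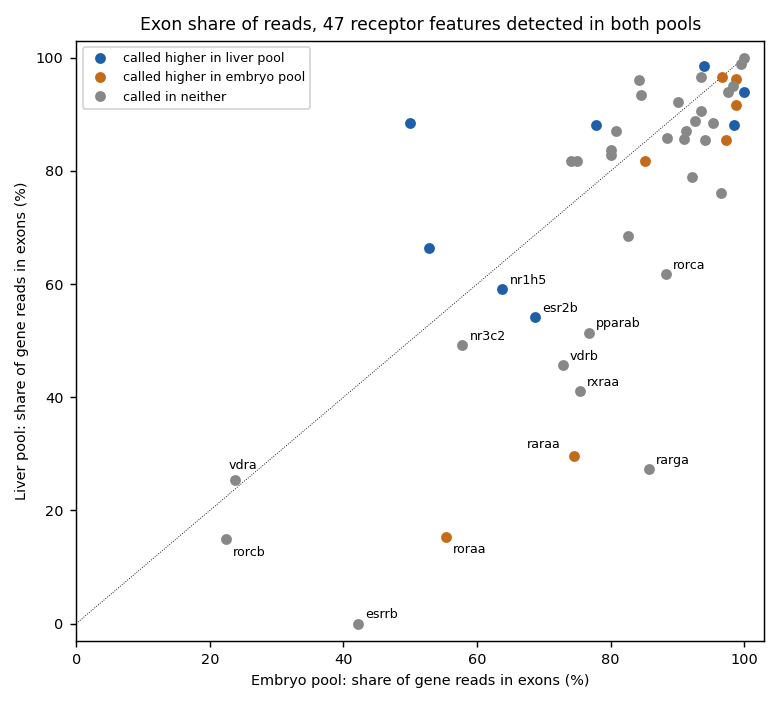
Share of gene reads that lay in annotated exons (%), embryo pool against liver pool, for 47 receptor features with at least 10 counts in both pools (the short pparg feature left out), coloured by call, with the dotted line at equal shares. Features such as rarga, raraa, roraa and esrrb lie far below the line, with exon shares in the liver pool of 27.3%, 29.7%, 15.4% and 0%.

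Coregulators, the proteins through which receptors act on chromatin, were mostly within 4-fold. Of 29 measured genes 26 were called in neither direction, 3 were called higher in embryos and 0 in livers, with a median log2 ratio of -1.29 against -1.60 for all measured genes. With TMM factors 1 was called in each direction. Shares of all measured genes called toward livers and embryos were 3.35% and 30.9%, or 8.06% and 15.8% with TMM factors. The corepressor gene ncor1 had 2111 embryo counts and 1992 liver counts, and the arginine methyltransferase gene prmt1 had 1682 and 628. The coactivator gene ncoa3 had 17 and 110 counts, a ratio of 5.67 (3.38 to 10.1), and was the gene called higher in the liver pool with TMM factors. Only 23.5% of its embryo reads and 22.7% of its liver reads were unique. Chaperones that hold steroid receptors ready for ligand had 3 of 10 measured genes called higher in embryos and 0 in livers, or 2 and 1 with TMM factors, near the 30.9% of all measured genes called toward embryos. Most abundant were hspa8 and hsp90ab1, with liver to embryo ratios of 0.469 (0.462 to 0.476) and 1.29 (1.28 to 1.31), the first of which turned to 1.2 with TMM factors. The inducible Hsp90 gene hsp90aa1.1 (hsp90a.1 in the files), needed in zebrafish muscle for myosin folding, had 815 embryo counts and 4 liver counts.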

How the data were processed

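The authors deposited, per the file headers, gene-level read counts in whole numbers, as unique reads with 1 position and total reads that also hold reads with several positions, with separate counts for exons, exon junctions and intron-exon boundaries. They also deposited RPKM and a median coverage signal, the second of which was not used. Aligner, annotation, genome build and the choice between reads and fragments were not given in the sources used here. Coordinates are left out for this reason.

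Total gene reads were scaled by library totals, 11408727 and 13020149. Ratios carry exact Clopper-Pearson 95% intervals on the conditional binomial, and the ratio of ratios of gene copies is an exact conditional odds ratio (scipy 1.17.1). A gene was measured at 10 counts or more in 1 pool, and the call needed an interval at or beyond 4-fold. A count of 0 was set to 3 per library for a fold value and for medians. Alternatives were edgeR 4.0.16 TMM factors, DESeq2 1.42.0 size factors, totals without the 10 most abundant genes of each pool, unique or exon reads scaled by their own sums, other count minimums and a 2-fold threshold. The short pparg feature was left out as an alternative added after seeing the data, as were unique exon reads.

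Lists of coregulators, chaperones, ligand enzymes, receptor targets and cell type markers were matched to feature names, otherwise by a synonym or gene number in the RefSeq table of GRCz12tu, used for names only. The pair esrra and esrrb, different receptors, was not taken as copies. Named genes were all receptors and, per list, up to 3 most abundant genes and 2 called in each direction. Several genes that this rule allowed, such as vtg1, vtg2 and cyp3a65, are left out of the results. Other list genes were chosen after their values were seen. The members and lists were chosen with earlier results of these data known.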

Additional observations from a re-analysis of the deposited data

How the results depend on the processing

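The median log2 ratio of the receptor features, -0.74 with library totals, turned to 0.61 with TMM factors and 0.64 with size factors, since each shifts all genes alike, and stayed between -0.92 and -0.47 under 7 other settings. The count called higher in the liver pool was 9 and ranged from 8, without the short pparg feature, to 12, with TMM factors, size factors or a 2-fold threshold. The count called higher in the embryo pool was 13 and ranged from 10, with TMM or size factors, to 18 with exon reads, and was 26 with a 2-fold threshold. Calls lost with TMM and size factors were nr1d2b, roraa and raraa, and calls gained were nr5a2, pparaa and ar. Receptor features detected in the liver pool numbered 43 at a minimum of 50 counts and 61 at 1 count, against 48. The ratio of ratios of roraa over rorab turned to 0.520 with exon reads, and that of rorca over rorcb, 2.11 (0.834 to 6.02), then included 1. Of 60 single ratios 52 left their counting interval with TMM or size factors, 25 with exon reads, 16 without the most abundant genes and 4 with unique reads. No called ratio changed sign with unique or exon reads. Under the other settings none could, since each moved all ratios alike by less than the 4-fold that a call needs. No paired analysis was possible because each source has 1 library, and no library could be left out. Genes under about 10 counts, such as pgr and nr5a1a, are limited by depth.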

Other observations

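Nuclear receptors outside the name rule were counted apart. The HNF4 genes, regulators of hepatocyte and gut identity, and the thyroid hormone receptor genes numbered 6 measured, with 2 called toward livers and 1 toward embryos, or 2 and 0 with TMM factors. Shares of all measured genes called toward livers and embryos were 3.35% and 30.9%, or 8.06% and 15.8% with TMM factors. The HNF4 genes called toward livers were hnf4a and hnf4b, whereas hnf4g, with 141 embryo counts and 265 liver counts, had a ratio of 1.65 (1.34 to 2.03). Of the thyroid hormone receptor genes thrb had 493 embryo counts and 348 liver counts, a ratio of 0.619 (0.538 to 0.711). The thyroid hormone receptor alpha copies had 276 and 376 counts for thraa, a ratio of 1.19 (1.02 to 1.40), and 163 and 19 counts for thrab, a ratio of 0.102 (0.0599 to 0.165) whose call was lost with TMM factors.

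Other receptor genes of the current gene table stand in the files under different names. The RXR gene rxrgb (zgc:92183 in the files) had 220 embryo counts and 387 liver counts, and rorc (LOC100004847 in the files) had 139 and 45, both called in neither direction. For nr4a2a, rargb and nr1d4b no feature was matched, so the NR4A, retinoic acid receptor and REV-ERB values above leave these genes out.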
